A study of Mus musculus with 10 samples.

Results

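Transcript levels of 10 tubulin genes were examined in hematopoietic progenitor cells taken from the marrow of mice bearing Lewis lung carcinoma (LLC), a tumour line grown in mice. The genes are the beta tubulins Tubb1, Tubb2a, Tubb2b, Tubb4b, Tubb5 and Tubb6 and the alpha tubulins Tuba1a, Tuba1b, Tuba4a and Tuba8. They were found by name, through the Ensembl identifiers of the deposited table, and all 10 had a row among the 38887 genes of that table. The set was selected on the measured difference in expression between the 2 groups of these same libraries, so for these genes that difference is given as a description, without a test. Mice of the vehicle group received the carrier only, and mice of the other group, called CK2i, received 60 mg/kg of BMS-595, which inhibits protein kinase CK2. Treatment lasted 2 weeks, and each group holds 5 libraries. All mice of both groups carried the tumour, and mice without a tumour were not analysed here. Sample titles call the vehicle group untreated. For the mice's age and genetic background, and for the markers used to isolate the cells, the labels name nothing. Libraries are numbered, with no statement that they stem from different animals, so errors and p-values measure the spread between these libraries, which may in part be technical.

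Microtubules are hollow polymers of heterodimers, each made of an alpha tubulin and a beta tubulin. Vertebrates carry several genes for each, called isotypes, whose proteins differ most in the tail at their end, where motors and modifying enzymes bind. Most cells rely on a few widely expressed isotypes. Tubb1 encodes the beta tubulin typical of megakaryocytes and platelets, where it forms much of the marginal band, the ring of microtubules that gives the resting platelet its disc shape, and loss of Tubb1 in mice lowers platelet counts and makes platelets rounder. The alpha tubulins of Tuba4a and Tuba8 have also been described in that lineage. Cells adjust tubulin messenger RNA to the amount of free tubulin, a feedback in which the protein TTC5 recognises nascent tubulin by its first residues at the ribosome.

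How far the genes can be told apart in short reads is seen in their sequences. The first 60 bases of the coding sequence are shown here for beta isotypes, from the GENCODE M21 transcripts, with the bases that differ from Tubb2a in capitals. They encode the start of the protein that the feedback on tubulin messenger RNA reads.
Tubb2a: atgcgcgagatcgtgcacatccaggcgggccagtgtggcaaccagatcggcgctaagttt
Tubb2b: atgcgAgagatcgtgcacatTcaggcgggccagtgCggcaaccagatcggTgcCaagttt
Tubb5: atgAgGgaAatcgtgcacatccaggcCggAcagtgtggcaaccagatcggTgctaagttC
Tubb4b: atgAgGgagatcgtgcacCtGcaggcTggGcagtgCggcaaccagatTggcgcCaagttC
Tubb1: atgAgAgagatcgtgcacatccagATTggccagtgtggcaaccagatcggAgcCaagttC

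In this stretch Tubb1 differed from Tubb2a at 8 bases, Tubb2b at 5, Tubb5 at 7 and Tubb4b at 10. Over the whole coding sequence Tubb1 was the most distant member of its family, with 73.0% to 76.1% identity to the other beta members, where the other beta members shared 80.2% to 96.5% with each other. Tubb2a and Tubb2b were 96.5% identical, and Tuba1a and Tuba1b 98.3%. Of all windows of 75 bases, the length of a sequencing read here, none in the transcripts of Tubb1, Tubb5, Tubb6, Tuba4a and Tuba8 occurred in a transcript of another gene. The share of windows found elsewhere was 43.2% for Tubb2a, 32.2% for Tubb2b, 37.8% for Tubb4b, 68.2% for Tuba1a and 71.9% for Tuba1b. Tubb2a and Tubb2b shared windows mostly with each other, Tubb4b with its pseudogenes, and Tuba1a and Tuba1b with each other, Tuba1c and pseudogenes. RSEM, the program that made the counts, divides such reads between genes by a model, so single values of these 5 genes are less certain than those of the other 5. Reads were sequenced in pairs, and a pair covers more than 1 such window.

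**Figure D1:**
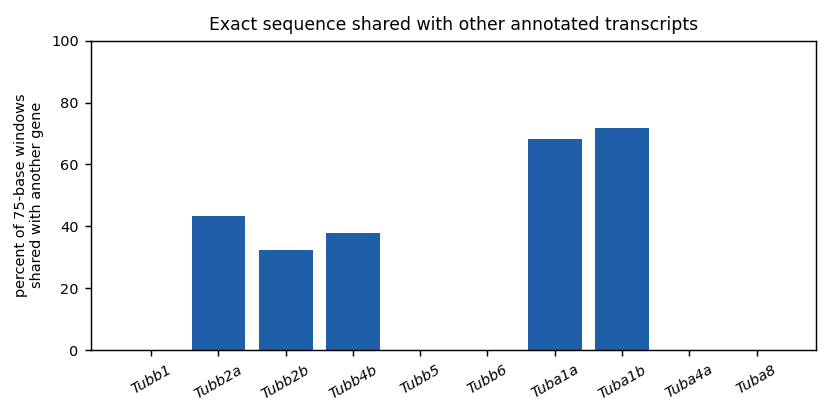
Bars give, for each tubulin gene, the percent of all 75-base windows of its transcript with the longest coding sequence that also occur in an annotated transcript of another gene. Tubb1, Tubb5, Tubb6, Tuba4a and Tuba8 are at 0, and Tuba1b is highest at 71.9%.

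Libraries held 34127674 to 43636152 estimated counts. CK2i 2 and CK2i 5 stood apart from the other libraries on the first principal component of log2 CPM (CPM are counts scaled to library depth, here by the TMM method), at 43.26 and 43.68, against -4.1 to 12.48 for CK2i 1, 3 and 4 and -29.62 to -9.37 for vehicle libraries, so differences and counts of genes that passed are also given without them. Genes of stem and progenitor cells were present in both groups, with a summed level over 15 markers of 1290 to 1540 CPM in vehicle and 1330 to 1430 CPM in CK2i libraries. Markers of other marrow lineages were present too, with vehicle means of 1425 FPKM for the platelet chemokine gene Pf4, 1197 FPKM for the erythroid carbonic anhydrase gene Car1 and 1308 FPKM for the granule peroxidase gene Mpo. By the quasi-likelihood test of edgeR, a count model, 1892 of 14346 genes (13.2%) had a Benjamini-Hochberg adjusted p under 0.05, with 6.76% lower and 6.43% higher in CK2i.

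The isotypes spanned a wide range of levels, which can be compared between genes in FPKM, a unit scaled by transcript length. In vehicle libraries Tuba1b was highest at 1035 ± 41.6 FPKM (SD, n = 5), followed by Tubb5 at 743 ± 30.3, Tubb4b at 558 ± 28.2, Tuba4a at 282.5 ± 16.3 and Tubb1 at 209 ± 24.8 FPKM. Lower levels were found for Tubb2a at 107 ± 21.7, Tuba1a at 67.5 ± 5.61, Tuba8 at 27.9 ± 2.95, Tubb6 at 5.33 ± 0.650 and Tubb2b at 4.68 ± 2.30 FPKM. In this order the library ranges of all neighbours were separate except those of Tubb6 and Tubb2b. The mean levels of CK2i libraries had the same order, but there the ranges of Tubb1 and Tubb2a overlapped, as did those of Tubb2a and Tuba1a, while Tubb6 and Tubb2b were apart.

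**Figure D2:**
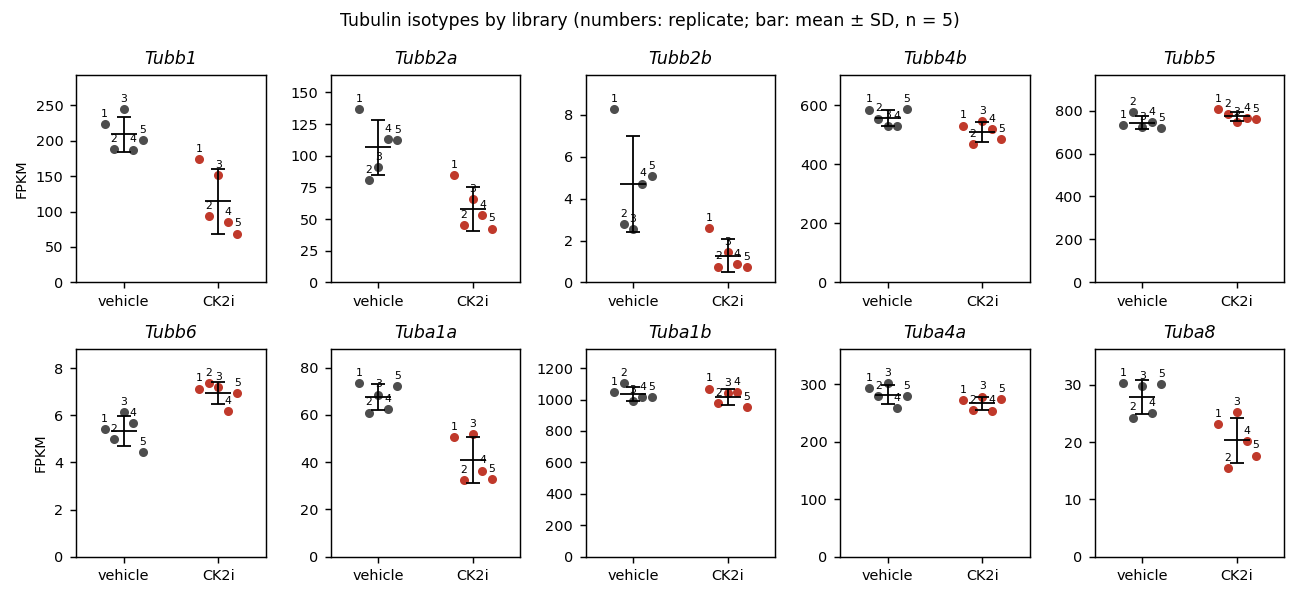
Each panel shows 1 tubulin gene, with FPKM from 0 on the vertical axis, a point per library numbered by replicate, and the mean ± SD of the 5 libraries of each group. Tubb1 lies between 187 and 244 FPKM in vehicle and between 68.7 and 174 FPKM in CK2i libraries, while Tubb5 and Tuba1b differ little between the groups.

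Tubb1, the platelet beta tubulin (ENSMUSG00000016255; GRCm38 chromosome 2, 174450695 to 174457882, plus strand), was at 224, 188, 244, 187 and 201 FPKM in vehicle libraries 1 to 5 and at 174, 93.8, 151, 84.7 and 68.7 FPKM in CK2i libraries 1 to 5. All 5 CK2i libraries lay below all vehicle libraries. On the scale of counts the gene was 1.83-fold lower in CK2i, a log2 difference of -0.88 ± 0.23 (SE), and without CK2i 2 and CK2i 5 the difference was -0.63. The CK2i libraries were far from uniform: CK2i 1 came close to the lowest vehicle library, whereas CK2i 4, which did not stand apart over all genes, was nearly as low as CK2i 5. The coefficient of variation of CPM was 12% in vehicle and 39.3% in CK2i libraries, where the medians over all tested genes were 7.72% and 10.3%. In bulk samples such as these, fewer cells of a type and less RNA per cell cannot be told apart.

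Tubb2a and Tubb2b, which lie next to each other on chromosome 13 (34074274 to 34078007 and 34126748 to 34130466, both on the minus strand), encode nearly the same beta tubulin, best known from neurons. Tubb2a (ENSMUSG00000058672) was at 137, 80.9, 91.1, 113 and 112 FPKM in vehicle and at 84.5, 45.1, 65.8, 53.3 and 42.4 FPKM in CK2i libraries. All CK2i values lay below all vehicle values except that of CK2i 1, which was just above the lowest. The log2 difference was -0.88 ± 0.19, equal to a 1.84-fold lower level, and -0.67 without CK2i 2 and CK2i 5.

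Tubb2b (ENSMUSG00000045136) had the widest spread of the 10 genes and the lowest level. It was at 8.27, 2.80, 2.56, 4.72 and 5.07 FPKM in vehicle and at 2.59, 0.760, 1.46, 0.880 and 0.730 FPKM in CK2i libraries. Vehicle 1 was the highest of all libraries for both genes, and CK2i 1 was the one CK2i library above the lowest vehicle library for both. The log2 difference of Tubb2b was -1.88 ± 0.42 (3.68-fold lower), and -1.54 without CK2i 2 and CK2i 5. Relative to Tubb2a, Tubb2b made up 4.203% ± 1.22 in vehicle and 2.07% ± 0.604 in CK2i libraries in FPKM, and 4 of the 5 CK2i ratios lay below all vehicle ratios. Because reads are shared, the counts of the pair were also summed, and the sum differed by -0.92 log2. Tubb2b is too small a part of that sum for it to bear on Tubb2b itself.

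Tubb5 and Tubb4b, the widely expressed beta tubulins that together make up most beta tubulin messenger RNA of these cells, differed little in level. Tubb5 (ENSMUSG00000001525; chromosome 17, 35833921 to 35838306, minus strand) was at 734, 793, 723, 745 and 717 FPKM in vehicle and at 806, 784, 747, 765 and 759 FPKM in CK2i libraries. The groups overlapped in 4 of the 5 CK2i libraries, and the log2 difference was 0.05 ± 0.04, or 0.04 without CK2i 2 and CK2i 5. Tubb4b (ENSMUSG00000036752; chromosome 2, 25222160 to 25224702, minus strand) was at 586, 556, 532, 529 and 587 FPKM in vehicle and at 531, 468, 548, 519 and 486 FPKM in CK2i libraries, a log2 difference of -0.13 ± 0.05. CK2i 1 and CK2i 3 lay inside the vehicle range in FPKM, while in CPM 4 of the 5 CK2i libraries lay below all vehicle libraries. The difference was -0.08 without CK2i 2 and CK2i 5.

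Tubb6 (ENSMUSG00000001473; chromosome 18, 67390717 to 67402749, plus strand), a beta tubulin of low abundance in many cells, was the only 1 of the 10 with a clearly higher level in CK2i libraries. It was at 5.43, 4.99, 6.13, 5.67 and 4.43 FPKM in vehicle and at 7.13, 7.35, 7.18, 6.17 and 6.94 FPKM in CK2i libraries. In CPM, which uses the counts, CK2i 4 at 9.72 lay just under the highest vehicle library at 9.77, and the other 4 lay above all vehicle libraries. The log2 difference was 0.38 ± 0.09 (1.30-fold higher), and 0.34 without CK2i 2 and CK2i 5, a smaller shift than for Tubb1 and the Tubb2 pair.

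Among alpha tubulins, Tuba1a and Tuba1b lie next to each other on chromosome 15 (98949837 to 98953703 and 98931425 to 98934565, both on the minus strand). Tuba1a (ENSMUSG00000072235), the main alpha tubulin of developing neurons, was at 73.3, 61.0, 68.6, 62.3 and 72.2 FPKM in vehicle and at 50.8, 32.3, 51.8, 36.4 and 32.8 FPKM in CK2i libraries. All 5 CK2i libraries were below all vehicle libraries, with a log2 difference of -0.73 ± 0.14 (1.66-fold lower) and of -0.56 without CK2i 2 and CK2i 5. Tuba1b (ENSMUSG00000023004), the widely expressed neighbour, was at 1045, 1102, 994, 1017 and 1017 FPKM in vehicle and at 1069, 976, 1043, 1046 and 953 FPKM in CK2i libraries, a log2 difference of -0.03 ± 0.04 with overlapping groups, which turned to 0.01 without CK2i 2 and CK2i 5. Tuba1a amounted to 6.54% ± 0.679 of Tuba1b in vehicle and 3.99% ± 0.799 in CK2i libraries, and every CK2i ratio lay below every vehicle ratio. The counts of Tuba1a, Tuba1b and Tuba1c summed differed by -0.06 log2, but Tuba1a is too small a part of that sum for it to bear on Tuba1a itself.

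Tuba4a (ENSMUSG00000026202; chromosome 1, 75214228 to 75219865, minus strand) is an alpha tubulin that ends without the terminal tyrosine most other alpha tubulins encode. It was at 293, 280, 302, 259 and 279 FPKM in vehicle and at 273, 255, 279, 254 and 275 FPKM in CK2i libraries. The groups overlapped and the log2 difference was -0.09 ± 0.05, the same without CK2i 2 and CK2i 5. Tuba8 (ENSMUSG00000030137; chromosome 6, 121210696 to 121226854, plus strand), a divergent alpha tubulin of muscle, testis and brain, was at 30.3, 24.3, 29.8, 25.1 and 30.2 FPKM in vehicle and at 23.1, 15.5, 25.3, 20.1 and 17.7 FPKM in CK2i libraries. CK2i 3 lay inside the vehicle range and the other 4 below it. The log2 difference of Tuba8 was -0.46 ± 0.12 (1.38-fold lower), and -0.31 without CK2i 2 and CK2i 5. Neither gene shares a 75-base window with another gene.

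Counted by the edgeR threshold, 5 of the 10 genes were lower in CK2i (Tubb1, Tubb2a, Tubb2b, Tuba1a and Tuba8), 1 was higher (Tubb6) and 4 were not called, beside the 13.2% called of all genes tested. Since the set was chosen with this contrast in view, nothing is read from that count. It was 0 without CK2i 2 and CK2i 5, while all log2 differences over 0.3 in size kept their sign there. It was 1, with Tuba1a as the gene, in each of the fits without vehicle 1, vehicle 4, vehicle 5, CK2i 2 or CK2i 5. Without CK2i 3 it was 7, with Tubb4b called lower as well. The groups did not overlap in CPM for 2 of the 10 genes, Tubb1 and Tuba1a, both lower in CK2i. Over all genes tested the groups were apart for 10.9%, with 5.76% lower and 5.18% higher. The median log2 difference of the 10 was -0.30, and that of all genes tested was 0.00.

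**Figure D3:**
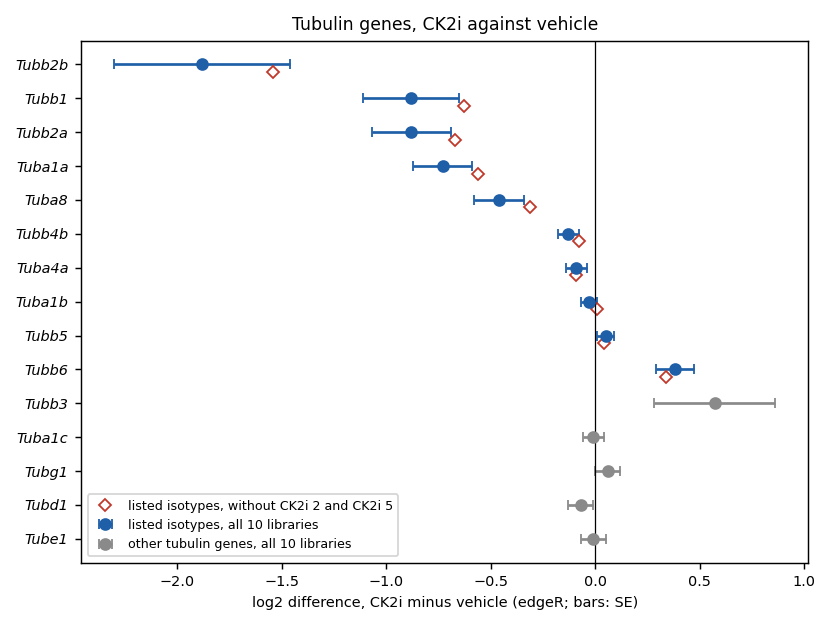
Points show the log2 difference in counts, CK2i minus vehicle, with its SE from edgeR, for the 10 listed genes in blue and other tested tubulin genes in grey, and open diamonds show the listed genes without CK2i 2 and CK2i 5. Tubb2b is lowest at -1.88, and Tubb4b, Tuba4a, Tuba1b and Tubb5 lie between -0.13 and 0.05.

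The makeup of beta tubulin messenger RNA differed between the groups by more percentage points than that of alpha tubulin. Tubb1 made up 12.8% ± 1.503 of the summed FPKM of all beta isotypes in vehicle and 7.68% ± 2.55 in CK2i libraries, and all 5 CK2i shares were below all vehicle shares. Tubb2a made up 6.55% ± 1.22 and 3.93% ± 0.887. Tubb5 held 45.7% ± 2.24 and 52.9% ± 3.12, with all 5 CK2i shares above all vehicle shares, and Tubb4b was at 34.3% ± 1.14 and 34.9% ± 1.51. In the alpha family Tuba1b held 68.1% ± 1.599 and 70.1% ± 1.16, Tuba4a 18.6% ± 0.991 and 18.4% ± 0.940, Tuba1a 4.44% ± 0.375 and 2.79% ± 0.537, and Tuba8 1.84% ± 0.200 and 1.39% ± 0.212. The summed FPKM of beta isotypes was 1627 ± 41.8 in vehicle and 1465 ± 98.1 in CK2i libraries, and that of alpha isotypes 1519 ± 43.1 and 1452 ± 69.8. The ratio of beta to alpha was 1.07 ± 0.0212 and 1.01 ± 0.0274, with 4 of the 5 CK2i libraries below all vehicle libraries.

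**Figure D4:**
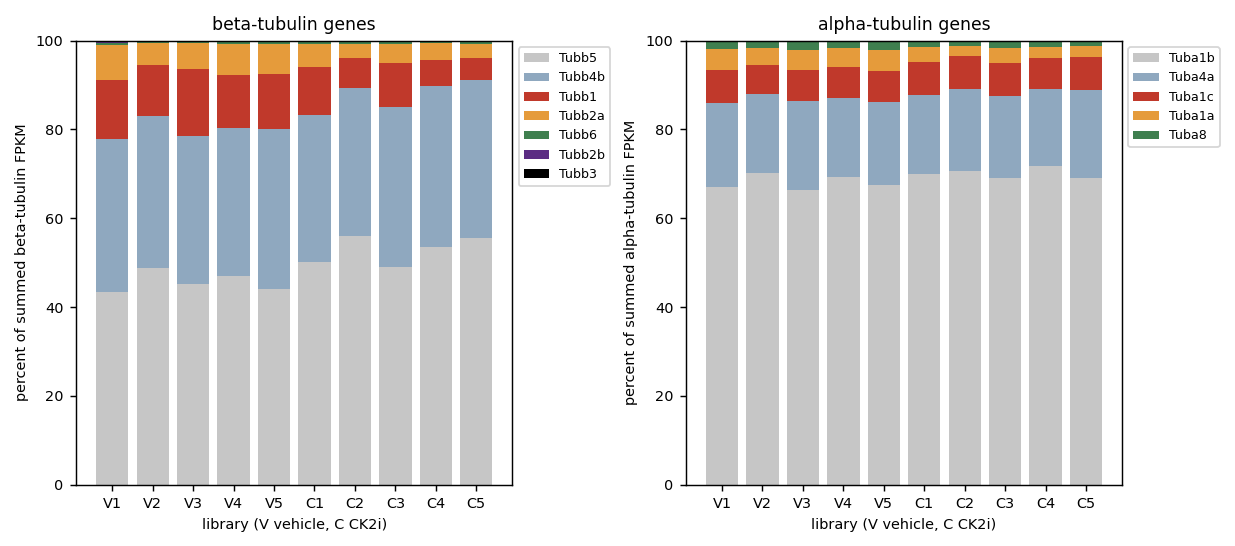
Stacked bars give each isotype's percent of the summed FPKM of its family in each library, vehicle V1 to V5 and CK2i C1 to C5. Tuba3a, Tuba3b, Tubal3 and Tubb4a, near 0, are not drawn. The red band of Tubb1 is between 11.5% and 15.3% in vehicle and between 5.03% and 10.8% in CK2i libraries.

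The members that were lower shared an order among the treated libraries, and a like order was seen over all genes tested. On the first principal component CK2i 3 and CK2i 1 lay nearest the vehicle libraries (-4.1 and 4.3). CK2i 2 and CK2i 5 lay farthest (43.26 and 43.68). How many of all lower genes had this order was not counted. For all 5 lower members, CK2i 1 and CK2i 3 were the 2 highest CK2i libraries. The lowest was CK2i 5 for 3 genes and CK2i 2 for 2 genes. A list of 24 megakaryocyte and platelet markers, which leaves out Tubb1, ran alongside, with summed levels of 6766, 4122, 7925, 5528 and 4629 CPM in CK2i libraries 1 to 5 against 6713 to 9877 CPM in vehicle libraries. Of its 24 members 7 passed downward and none upward in edgeR's test, with a median log2 difference of -0.54, beside the background of 6.76% lower, and no member was at 0. That count was 0 without CK2i 2 and CK2i 5, and between 1 (without CK2i 2 or CK2i 5) and 21 (without CK2i 3) with 1 library left out. Nfe2, a transcription factor that drives late megakaryocyte genes including Tubb1, fell from 147 ± 9.74 to 113.5 ± 12.3 CPM (log2 -0.37 ± 0.07, edgeR adjusted p = 0.018), and it passed whichever of the 10 libraries was left out, but not without both CK2i 2 and CK2i 5 (log2 -0.30 ± 0.08, edgeR adjusted p = 0.0877). Pf4 was at 599.5 ± 125 and 366 ± 118 CPM (log2 -0.71 ± 0.22) and Itga2b, the integrin chain of the platelet fibrinogen receptor, at 1023 ± 177 and 737 ± 226 CPM (log2 -0.47 ± 0.20), and neither passed (edgeR adjusted p = 0.0535 and 0.114). Without CK2i 2 and CK2i 5 their log2 differences were -0.47 and -0.23. The part of this cell type in the tubulin differences was not tested.

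Of 17 tested neutrophil markers 10 were higher and none lower, beside 6.43% and 6.76% over all genes tested, with a median log2 difference of 0.71 and summed levels of 2640 to 5390 CPM in vehicle and 4930 to 8020 CPM in CK2i libraries. The neutrophil count was 0 without CK2i 2 and CK2i 5, and 0 to 10 with 1 library left out, lowest without vehicle 1 or vehicle 4. Of 18 erythroid markers 6 were higher and 4 lower, and of 14 monocyte and macrophage markers 4 were higher and none lower. Of 8 tested lymphoid and of 12 stromal and endothelial markers 2 each were lower and none higher. Of 15 stem and progenitor markers 1 was higher and 1 lower. For these further lists no libraries were left out. Of 18 mitosis genes 2 were higher and 1 lower, near the 13.2% called over all genes, with a median of 0.08. Their log2 difference was above 0 for 16 of the 18, and for 7147 of all 14346 genes. Summed levels were 4450 to 4770 CPM in vehicle and 4630 to 5760 CPM in CK2i libraries. The mitosis count was 1 without CK2i 2 and CK2i 5, and 1 to 7 with 1 library left out. The part of these cells and of cell division in the tubulin differences was not tested either.

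**Figure D5:**
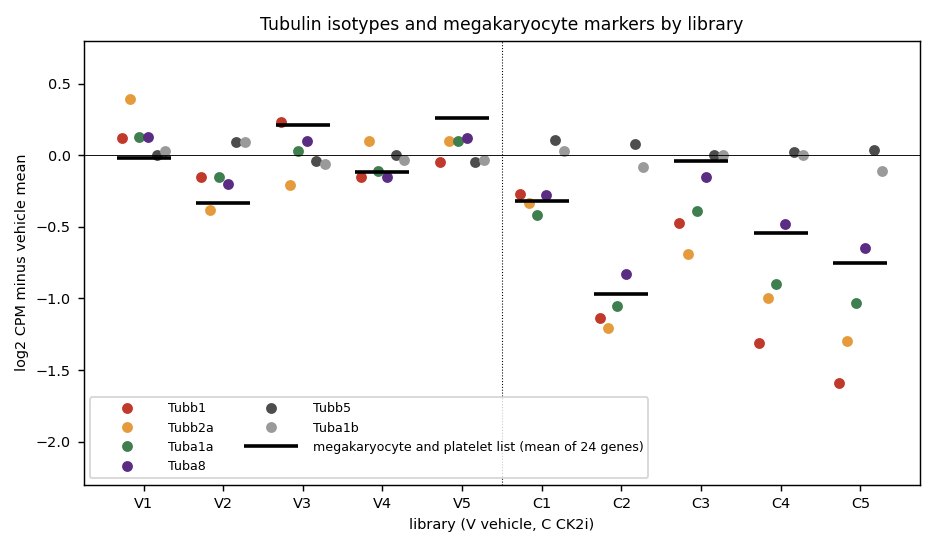
Points show log2 CPM minus the vehicle mean of 6 tubulin genes in each library, vehicle V1 to V5 and CK2i C1 to C5, and black bars show the mean over 24 megakaryocyte and platelet markers on the same scale. Tubb1, Tubb2a, Tuba1a and Tuba8 are lower in C2, C4 and C5 than in C1 and C3, while Tubb5 and Tuba1b stay between -0.11 and 0.11 in all libraries.

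Upstream sequence was available for 8 of the 10 genes in the RefSeq table of GRCm38.p6. Shown are 4 beta isotypes, 2 that were lower in CK2i and 2 that differed little, whose windows hold at most 5 bases of a GENCODE exon. The windows of Tuba1a, Tuba1b, Tuba4a and Tuba8 are not shown, because 202, 175, 119 and 38 of their 250 bases lie in GENCODE exons. Each run is the 250 bases before the RefSeq start, 5′ to 3′ on the strand of the gene. Capitals mark matches on either strand to 6 motifs, which do not overlap one another in these runs. The core bound by NF-E2 and AP-1 was searched as TGAGTCA. The site of GATA-family factors was searched as AGATAA, and that of ETS-family factors as CCGGAAG. The Sp1 site was searched as GGGCGG, the NF-Y site as CCAAT, and the TATA box as TATAAA.
Tubb1, chr2:174450345-174450594, plus strand: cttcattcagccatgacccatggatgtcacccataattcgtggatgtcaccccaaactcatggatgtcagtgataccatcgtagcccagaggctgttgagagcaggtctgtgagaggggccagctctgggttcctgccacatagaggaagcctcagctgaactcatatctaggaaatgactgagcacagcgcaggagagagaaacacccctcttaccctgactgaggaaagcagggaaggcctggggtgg
Tubb2a, chr13:34078009-34078258, minus strand: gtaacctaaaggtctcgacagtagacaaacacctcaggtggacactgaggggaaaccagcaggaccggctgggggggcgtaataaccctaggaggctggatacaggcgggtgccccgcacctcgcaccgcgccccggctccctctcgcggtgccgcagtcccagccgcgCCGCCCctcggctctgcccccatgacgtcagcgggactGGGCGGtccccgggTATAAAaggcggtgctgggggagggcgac
Tubb4b, chr2:25224703-25224952, minus strand: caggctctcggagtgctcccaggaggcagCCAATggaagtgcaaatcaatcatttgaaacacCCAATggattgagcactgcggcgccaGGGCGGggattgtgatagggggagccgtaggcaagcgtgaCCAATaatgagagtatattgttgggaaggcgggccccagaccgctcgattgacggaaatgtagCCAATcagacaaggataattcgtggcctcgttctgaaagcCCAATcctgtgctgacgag
Tubb5, chr17:35838302-35838551, minus strand: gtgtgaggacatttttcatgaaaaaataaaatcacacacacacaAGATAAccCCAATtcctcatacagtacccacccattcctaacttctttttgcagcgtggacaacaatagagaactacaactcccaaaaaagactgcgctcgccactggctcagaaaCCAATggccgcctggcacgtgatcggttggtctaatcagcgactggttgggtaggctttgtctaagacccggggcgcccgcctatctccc

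The window of Tubb1 held 3 CpG dinucleotides and no match to any of the 6 motifs. Its RefSeq start, at base 174450595, lies upstream of the GENCODE start at 174450695, so another start would move the window. Tubb2a held 22 CpG, 2 matches to GGGCGG and a TATAAA match that begins 29 bases before the start. Tubb4b held 13 CpG, 1 match to GGGCGG and 5 to CCAAT, and Tubb5 held 10 CpG, 2 matches to CCAAT and 1 to AGATAA. Over all 32851 windows of the table the median was 6 CpG, and CCAAT was found in 33.8%, GGGCGG in 32.7%, TATAAA in 12.4%, AGATAA in 9.99%, CCGGAAG in 6.91% and TGAGTCA in 4.46% of them. None of the 8 windows held TGAGTCA or CCGGAAG, the alpha windows that lie partly in exons included. A match describes letters in this window only.

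The other tubulin genes of the genome did not pass the test. Of 10 listed, 5 had enough counts to be tested, none passed in edgeR or in DESeq2, and none had an unadjusted p under 0.05 in either. Tuba1c, the third member of the Tuba1 cluster, was at 107 ± 4.96 and 106 ± 5.72 FPKM, with a log2 difference of -0.01 ± 0.05 (edgeR adjusted p = 0.915). Tubg1, the gamma tubulin that seeds microtubules at centrosomes, was at 23.3 ± 1.23 and 24.4 ± 1.68 FPKM (log2 0.06 ± 0.06), and the centriolar tubulins Tubd1 and Tube1 differed by -0.07 ± 0.06 and -0.01 ± 0.06. Tubb3, the neuronal beta tubulin, was at 0.824 ± 0.169 and 1.23 ± 0.591 FPKM (log2 0.57 ± 0.29, edgeR adjusted p = 0.183). Tubb4a, Tuba3a, Tuba3b, Tubal3 and Tubg2 held at most 11 counts in any library.

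Of 23 genes that fold tubulin 2 passed downward and none upward, beside 6.76% lower and 6.43% higher over all genes tested. The log2 difference was below 0 for 22 of the 23, and for 7199 of all 14346 genes. Its median was -0.09, where all genes had 0.00, and the list as a whole was not tested. Those that passed were Tbcd and Tbca, cofactors that handle beta tubulin on its way to the heterodimer. Tbcd fell from 153 ± 4.75 to 135 ± 5.48 CPM (log2 -0.18 ± 0.04, edgeR adjusted p = 0.0214), and Tbca from 39.2 ± 0.990 to 34.04 ± 1.84 CPM (log2 -0.20 ± 0.05, edgeR adjusted p = 0.0232), and each passed in 6 of 10 fits with a library left out. All 5 CK2i libraries lay below all vehicle libraries for both, as they did in CPM for 5.76% of all genes tested. Tcp1, a subunit of the chaperonin that folds tubulin and highest of the list by FPKM, did not pass, with 758 ± 30.03 and 725 ± 43.95 CPM (edgeR adjusted p = 0.364). Ttc5, the factor of tubulin autoregulation, differed by 0.04 ± 0.05.

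In the list of the gamma-tubulin ring complex and its recruiting proteins 1 of 18 genes rose and 1 fell, a share below the 13.2% called over all genes tested, with a median of 0.02. Mzt1, a small subunit of the ring, fell by 0.17 ± 0.04 log2 (edgeR adjusted p = 0.0291), and Haus5, a subunit of augmin, which branches microtubules in the spindle, rose by 0.17 ± 0.05 (edgeR adjusted p = 0.0383). With 1 of the 10 libraries left out, Mzt1 passed in 4 fits and Haus5 in 2. Haus4, highest of the list by FPKM, did not pass, with 74.6 ± 4.26 and 71.1 ± 4.29 CPM (edgeR adjusted p = 0.38).

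Of 18 enzymes that modify tubulin 2 rose and 2 fell, beside 6.43% higher and 6.76% lower over all genes tested. Ttll4, which adds glutamate to tubulin tails, rose from 93.9 ± 1.80 to 106.5 ± 4.805 CPM (log2 0.18 ± 0.04, edgeR adjusted p = 0.0194). It passed in 9 of 10 fits with a library left out. Vash2, a carboxypeptidase that removes the terminal tyrosine of alpha tubulin, rose from 0.589 ± 0.185 to 1.17 ± 0.191 CPM (edgeR adjusted p = 0.0257). Sirt2, a deacetylase with tubulin among its substrates, fell by 0.31 ± 0.07 log2 (edgeR adjusted p = 0.0241). Ttll1, another enzyme that adds glutamate, fell by 0.42 ± 0.11 log2 (edgeR adjusted p = 0.035). Of the 10 fits with a library left out, Sirt2 passed in 6, Vash2 in 5 and Ttll1 in 4. Svbp, the partner of the vasohibins and highest of the list by FPKM, did not pass, with 24.4 ± 1.89 and 20.04 ± 2.395 CPM (edgeR adjusted p = 0.0535).

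Of 27 microtubule-associated proteins 2 were higher and 3 lower, beside 6.43% and 6.76% over all genes tested, with a median of 0.00. Clip1, which tracks growing plus ends, rose from 102 ± 2.61 to 121 ± 3.835 CPM (log2 0.25 ± 0.03, edgeR adjusted p = 0.00555), and passed in all 10 fits with a library left out. Map7, a recruiter of kinesin-1, fell from 43.8 ± 1.59 to 36.2 ± 3.01 CPM (edgeR adjusted p = 0.0215), while its relative Map7d1 rose from 32.03 ± 2.997 to 40.25 ± 4.098 CPM (edgeR adjusted p = 0.0327). Map1lc3b, better known for autophagosomes, fell by 0.19 ± 0.04 log2, and Mapre1, the end-binding protein EB1, by 0.15 ± 0.04 (edgeR adjusted p = 0.0232 and 0.0455). Map7 passed in 7 of these 10 fits, Map1lc3b in 6, Map7d1 in 5 and Mapre1 in 3. Stmn1, which sequesters free tubulin dimers and was highest of the list by FPKM, did not pass, with 435 ± 27.1 and 414 ± 13.6 CPM (edgeR adjusted p = 0.295).

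Among 48 tested motor genes 2 were higher and 5 lower, about the 13.2% called over all genes tested, with a median of 0.00. Kif21a, a kinesin that restrains growth at plus ends, rose from 1.203 ± 0.221 to 2.915 ± 0.4203 CPM (log2 1.27 ± 0.17, edgeR adjusted p = 0.00424), and passed in all 10 fits with a library left out. The next 4 by adjusted p fell. They were the dynein light chain gene Dynlt3 (log2 -0.32 ± 0.05, edgeR adjusted p = 0.00809, also in all 10 fits), the dynein intermediate chain gene Dync1i2 (-0.17 ± 0.04, adjusted p = 0.0247), and the dynactin subunits Dctn2 (-0.21 ± 0.06, adjusted p = 0.0388) and Dctn4 (-0.11 ± 0.03, adjusted p = 0.0428). Dync1i2 passed in 6 of the 10 fits, Dctn2 in 4 and Dctn4 in 2. Kif20a and Kif3a passed as well, each in 2 of those fits. Dynll1, highest of the motor genes by FPKM, did not pass, with 157.5 ± 17.8 and 145 ± 25.6 CPM (edgeR adjusted p = 0.499).

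These pathway counts varied with single libraries. Without CK2i 5 they were 0 for folding, 0 for nucleation, 1 for modifying enzymes, 1 for associated proteins and 2 for motors, and without CK2i 3 the last 4 were 5, 7, 8 and 19. Without both CK2i 2 and CK2i 5, Clip1, Kif21a and Dynlt3 were the only pathway genes that passed, with log2 differences of 0.22, 1.36 and -0.27 (edgeR adjusted p = 0.0237, 0.0198 and 0.031). The other pathway genes named as rising or falling kept their sign there.

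Genes with the profile most like that of a given tubulin were sought among 10370 tested genes with a mean of at least 5 CPM. Likeness was the root mean square difference of log2 CPM over the 10 libraries, each profile centred on its mean, so it takes in the difference between the groups. Profiles were not scaled for the size of their changes. Genes that vary little therefore lie near each other, and genes that vary much lie far from most others. For Tubb1 the nearest genes were Slfn14 at 0.127, Draxin at 0.130, Lrrn3 at 0.131, Cass4 at 0.139 and Prokr1 at 0.151, where the median over all genes was 0.605. The nearest to Tuba8 were Unc119 at 0.051, Lims1 at 0.057, Rap1b at 0.061, Arhgap6 at 0.062 and Rgs18 at 0.068, against a median of 0.317. Tubb2b, with the widest spread of the 10 genes, had no close match by this unscaled measure. Nearest were Prokr1 at 0.577, Draxin at 0.593, Amigo2 at 0.604, its neighbour Tubb2a at 0.608 and Neb at 0.610, against a median of 1.145. Its deviations from the vehicle mean had the sign of those of Tubb2a in every library and were larger, for example -2.45 and -1.21 log2 in CK2i 2. Nearest to Tubb6 were Smad1 at 0.080, Cebpa at 0.082, Tcea2 at 0.083, Ppp1r18 at 0.089 and Slco4a1 at 0.091 (median 0.264). Among the 10 tubulin genes themselves, the smallest distances were those of Tubb5 with Tuba1b at 0.063 and Tubb4b with Tuba1b at 0.078. These genes varied little, so their small distances do not show that they rose and fell together. Of the lower genes the nearest pairs were Tuba1a with Tuba8 at 0.161 and Tuba1a with Tubb2a at 0.193.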

How the data were processed

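RNA sequencing libraries of total RNA (stranded kit, paired reads) were compared, 5 from vehicle and 5 from CK2i mice. Per the submitters' processing notes, the authors used Bowtie2 and RSEM 1.2.31 with mm10, and DESeq2 is also named; no source used here gives the annotation or strand setting. The deposited table holds estimated counts per gene, which are whole numbers and so appear rounded, and FPKM values, scaled by the authors for transcript length and depth. Lines without a gene (2) were dropped. Gene symbols and positions are those of GENCODE M21 (GRCm38, also named mm10), which matched 37570 identifiers.

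Counts were fitted in R 4.3.3 with edgeR 4.0.16 (glmQLFit and glmQLFTest), with TMM scaling, filterByExpr (minimum count 10), group as the only term, two-sided, with Benjamini-Hochberg adjustment over 14346 genes and a threshold of 0.05. SE is the log2 difference divided by the square root of F. CPM use TMM scaling, and log2 CPM a prior count of 2. Lowest depth was 34127674 counts, and the biological coefficient of variation was 14.2%, so spread between libraries and not counting sets the precision for all but low genes. Within groups no 2 libraries agreed within sampling noise (chi-square per degree of freedom 10.96 to 72.9). The script was tested on simulated counts. Alternatives were DESeq2 1.42.0, RLE scaling, no filter, and limma 3.58.1 on log2(FPKM + 1) and log2(FPKM + 0.1) for genes with 1 FPKM in 5 libraries. Further ones were a replicate block, 1 surrogate variable (sva 3.50.0) and leaving out libraries. Counts were also summed for Tubb2a with Tubb2b, for Tuba1a with Tuba1b and Tuba1c, and for Tubb4b with Tubb5. Leaving out libraries for the megakaryocyte, neutrophil and mitosis counts was chosen after seeing the data.

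The members and gene lists were chosen with earlier results of these data known. Named beside the 10 members are all other tubulin genes, from each pathway list up to 5 genes that passed (by adjusted p) and the one with the highest vehicle FPKM, Nfe2, Pf4 and Itga2b, and the 5 nearest profiles of Tubb1, Tubb2b, Tubb6, Tuba4a and Tuba8, of which those of Tuba4a are not reported here. Car1 and Mpo were added after their values were seen. Protein sequences were not used here.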

Additional observations from a re-analysis of the deposited data

Results flagged for a closer look

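In 4 of 60 groups of 5 values, 1 library lay far from the others by Dixon's criterion, which chance exceeds in about 1 of 20 independent groups. None of these 4 concerned the 10 listed isotypes. The 60 include groups with the same value in all libraries, which cannot be flagged. The listed isotypes enter both in CPM and as shares of FPKM, so the groups are not independent. Tubb3 was at 3.83 CPM in CK2i 5 against 1.24 to 1.94 CPM in the other CK2i libraries. Tuba1c was at 210 CPM in vehicle 1 against 187 to 192 CPM in the other vehicle libraries. Tube1 was at 11.6 CPM in vehicle 2 against 10.02 to 10.4 CPM in the others. Tubal3 held 1 count (0.0257 CPM) in vehicle 5 and 0 in the other vehicle libraries, which is within counting error.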

How the results depend on the processing

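All genes called numbered 3169 with DESeq2, 1098 and 1071 by limma on log2(FPKM + 1) and log2(FPKM + 0.1), 1139 with the replicate block, 30 with 1 surrogate variable (correlation with the group 0.7) and 175 without CK2i 2 and CK2i 5. They were 446 to 3198 without 1 library: 458, 758, 528 and 546 without vehicle 1, 3, 4 and 5, and 617, 3198 and 446 without CK2i 2, 3 and 5. Listed isotypes called were 0 with the surrogate variable, 0 without CK2i 2 and CK2i 5, and 1 to 7 without 1 library. Folding genes called were 1 with the block, 0 with the surrogate variable, 0 without CK2i 2 and CK2i 5, and 0 to 2 without 1 library. Nucleation genes were 5 with DESeq2, 1 without the count filter, 0 with the block, 0 with the surrogate variable, 0 without CK2i 2 and CK2i 5, and 0 to 5 without 1 library. Modifying enzymes were 9 with DESeq2, 0 with the surrogate variable, 0 without both CK2i libraries, and 1 to 7 without 1 library. Associated proteins were 8 with DESeq2, 2 by limma with either pseudocount, 0 with the surrogate variable, 1 without both CK2i libraries, and 1 to 8 without 1 library. Motors were 14 with DESeq2, 4 without the filter, 4 by limma with either pseudocount, 4 with the block, 1 with the surrogate variable, 2 without both CK2i libraries, and 2 to 19 without 1 library. Fits with fewer samples have less power, though without CK2i 3 the count over all genes was higher than with all libraries. For no setting was the cause of a change in counts tested. No other tubulin gene was called in any setting.

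No called isotype changed sign in any of its alternatives. Over 18 alternatives that kept the genes separate, log2 differences ran from -1.07 to -0.39 for Tubb1, -1.05 to -0.41 for Tubb2a, -2.3 to -0.96 for Tubb2b, -0.83 to -0.36 for Tuba1a, -0.55 to -0.12 for Tuba8 and 0.32 to 0.43 for Tubb6, and the smallest in size of the 5 lower genes came with the surrogate variable. Summing Tubb4b and Tubb5 gave 0.00. These are 82.2% identical in coding sequence and share no 75-base window, so that sum does not bear on shared reads. Isotype shares moved by less than 1 SD with counts in place of FPKM, without CK2i 2 and CK2i 5, and without any 1 library. Within that spread, the Tubb4b share difference turned from 0.60 to -0.63 percentage points with counts and was 0.25 to 1.05 without 1 library (lowest without CK2i 4). That of Tuba4a went from -0.17 to -0.68 without CK2i 2 and CK2i 5, and to 0.21 and 0.08 without vehicle 3 and CK2i 4. Replicate numbers share only a number: correlations of deviations between same-numbered libraries were 0.228, 0.114, 0.068, 0.03 and -0.159, and 1 of 5 vehicle libraries correlated best with its own number. With the block 5 listed isotypes were called, without Tubb6.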
